A study of Homo sapiens with 4 samples.

Results

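The ferritin and iron handling genes described here are 10 genes listed by name, which store iron (FTH1, FTL), bring it in (TFRC, STEAP3, SLC11A2, SLC39A14), let it out (SLC40A1), sense it (ACO1, IREB2) or release it from ferritin (NCOA4). Of the 10 genes, 9 were matched by symbol among 57820 gene identifiers, and those 9 passed the filter on low counts. NCOA4 could not be matched through the symbol tables and was not analysed here. RNA sequencing measured them in Daoy cells, a human medulloblastoma line, in 3 libraries labelled wild type (WT 1 to 3) and 1 library labelled ARID1B shRNA. The shRNA, a short hairpin RNA that lowers its target through RNA interference, was carried by a lentiviral vector and induced with doxycycline. Its carriers were polyclonal populations, and ARID1B encodes a subunit of the BAF chromatin remodelling complex. Per the labels' protocols, cells were given doxycycline at 1 µg/ml for 72 h. Cells with the vector alone and parental cells are named as controls in the series design, without saying which of WT 1 to 3 is which. No label says that the wild-type libraries were separate cultures, so p-values measure only the spread between these libraries. The shRNA arm has no replicate, and the spread in each test came from the wild-type libraries.

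Cells take up iron bound to transferrin through the transferrin receptor, reduce it in endosomes, move it into the cytosol, and store what they do not use inside ferritin, a protein shell built of heavy and light chains. The heavy chain oxidises the iron and the light chain helps to lay down the mineral core. Iron regulatory proteins, encoded by ACO1 and IREB2, bind hairpins called iron-responsive elements when iron is low. A hairpin in the 5′ UTR then blocks translation of the mRNA, and the hairpins in the 3′ UTR of TFRC protect that mRNA from decay. Control through a 5′ hairpin acts on protein synthesis, which mRNA counts do not measure.

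The iron-responsive elements are shown because their place in the mRNA bears on the kind of control that mRNA counts can or cannot report. The letters CNNNNNCAGTGN, on the transcribed strand, were searched in the UTRs of GENCODE v29 coding transcripts (GRCh38). The 5 bases before the CAGTGN loop had to pair with the 5 bases after it (G with T allowed), with at least 3 further pairs below the bulged C. The letters alone were found in a UTR of all 10 members and of 46% of 19669 coding genes. The letters with the paired stem were found in 15 of those genes (0.0763%), among them 4 of the 10 members. The rule was set to the known form of the iron-responsive element, so these counts are not a test of the members. Capitals mark the loop, and each run is 29 bases, 5′ to 3′, with T for U.
FTH1, 5′ UTR: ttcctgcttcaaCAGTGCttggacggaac
FTL, 5′ UTR: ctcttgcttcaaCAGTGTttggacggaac
SLC40A1, 5′ UTR: caacttcagctaCAGTGTtagctaagttt
TFRC, 3′ UTR, site a: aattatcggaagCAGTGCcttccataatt
TFRC, 3′ UTR, site b: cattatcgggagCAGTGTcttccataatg
TFRC, 3′ UTR, site c: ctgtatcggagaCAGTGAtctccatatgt
TFRC, 3′ UTR, site d: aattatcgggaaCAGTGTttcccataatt
The FTH1 element lies in exon 1 at chr11:61967574-61967602 on the minus strand, and the FTL element in exon 1 at chr19:48965335-48965363 on the plus strand. The SLC40A1 element lies in exon 1 at chr2:189580661-189580689 on the minus strand. The 4 TFRC elements that met the rule lie in exon 19 on the minus strand, at chr3:196050979-196051007, chr3:196050575-196050603, chr3:196050510-196050538 and chr3:196050463-196050491. An element with other loop letters or a less regular stem would be missed, so a gene or site without a match may still hold one. SLC11A2, which has transcripts that end in different 3′ UTRs, held the letters there with at most 4 of the 5 upper pairs, so it missed the rule used here. Its gene counts do not separate those transcripts.

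The libraries held 12619786, 13228587 and 15390106 reads assigned to genes (WT 1, 2 and 3), and 8792848 reads (library labelled ARID1B shRNA). Levels are CPM, read counts divided by library size after scaling of the libraries by TMM (trimmed mean of M-values). ARID1B itself, the check of the labels, stood at 164, 88.0 and 72.9 CPM in WT 1 to 3 and at 175 CPM in the library labelled ARID1B shRNA. It was not lower there (log2 fold change 0.69, edgeR adjusted p = 0.399), so each direction below is one of the library that carries that label. Genes of high GC content were higher in that library: the median log2 fold change went from -0.30 in the lowest GC decile of tested genes to 1.32 in the highest. Log2 fold changes of the iron genes after removal of a GC content and length trend from each library are therefore given as well. ARID1B turned to -0.16 with that trend removed (edgeR adjusted p = 0.901). Its GC content of 53.7% lies in decile 7, where the median log2 fold change was 0.03, and its longest transcript has 10813 bases. The parts of GC content and of length in the ARID1B shift were not told apart. Of the 13 neural and medulloblastoma markers 9 exceeded 1 CPM in each library, while ATOH1 was at 0 counts in each, and NEUROD1 was at or below 0.466 CPM. Their sum was 2845 to 3229 CPM in wild type against 1280 CPM, most of it from VIM, which fell, while ZIC2 rose (edgeR adjusted p = 0.0214 and 0.043). Summed markers of red cells, nearly all EPOR, were at 2.71 to 4.75 CPM against 5.59 CPM. Those of macrophages, mostly CSF1R, were at 4.50 to 10.5 CPM against 2.51 CPM. Those of hepatocytes, nearly all SERPINA1, were at 26.7 to 66.6 CPM against 23.2 CPM. The globin genes HBA1, HBA2 and HBB were at 0 counts in each library, as were the hepatocyte hormone gene HAMP and the macrophage marker AIF1. The 6 fibroblast and mesenchymal markers summed to 3865 to 5736 CPM in WT 1, 2 and 3, against 3582 CPM in the library labelled ARID1B shRNA, and the smallest edgeR adjusted p among them was 0.0519, for COL3A1.

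FTH1 was the 1 member that passed the test. It rose, and the other 8 tested members did not pass in either direction. That is 1 of 9 members, where 4.48% of the 17024 tested genes were called in either direction, 3.65% were called higher and 0.834% lower. That split moved with the GC content and length trend: 621 genes were called higher and 142 lower as counted, against 335 higher (1.97%) and 205 lower (1.2%) with the trend removed. The median log2 fold change of the 9 members was -0.22, beside -0.05 over all tested genes. The library labelled ARID1B shRNA lay above each wild-type library for 3 members, below each for 1 and inside their range for 5. Over all tested genes it lay above in 35.4% and below in 37.9%, so standing outside the range was common.

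**Figure D1:**
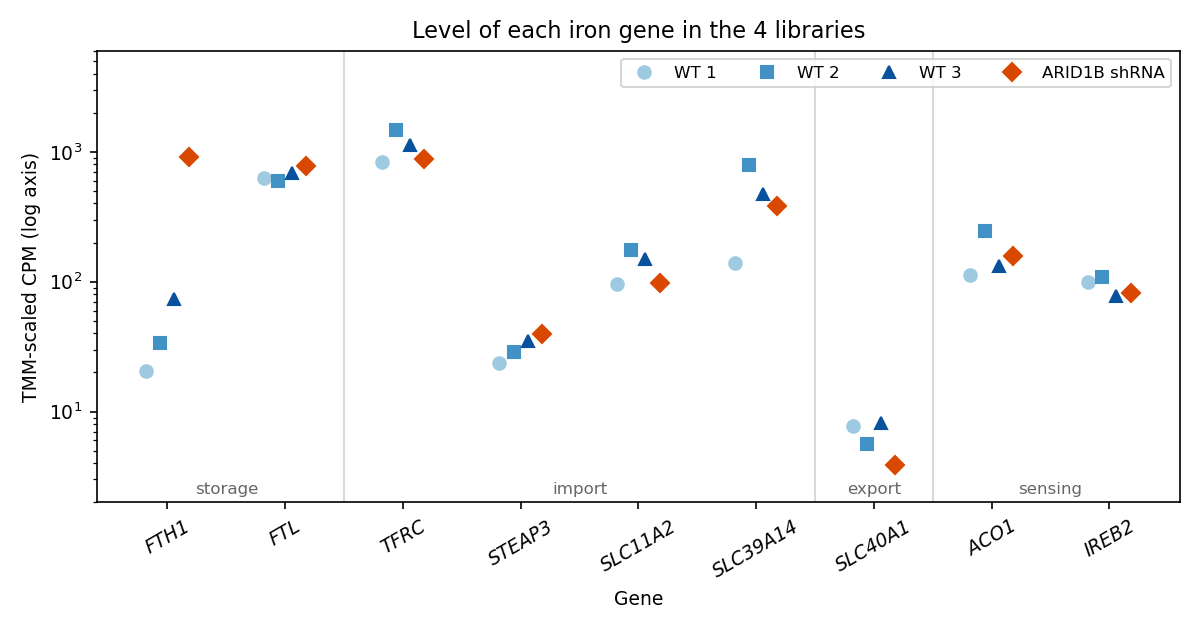
TMM-scaled CPM (log axis) of the 9 measured iron genes, grouped by role, with 1 point per library. FTH1 is 20.7 to 73.2 CPM in the wild-type libraries, against 920 CPM in the library labelled ARID1B shRNA, while 5 members sit inside the wild-type range.

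FTH1, the ferritin heavy chain, was far higher in the library labelled ARID1B shRNA. FTH1 (ENSG00000167996.11) measured 20.7, 33.6 and 73.2 CPM in WT 1, 2 and 3, from 266, 434 and 1124 counts. In the library labelled ARID1B shRNA it measured 920 CPM, from 8065 counts, with an exact Poisson 95% interval of 899.9 to 940.2 CPM that covers counting error only. The groups did not overlap, and the wild-type libraries themselves differed 3.54-fold between lowest and highest. The log2 fold change was 4.43 (standard error, SE, 0.62), a 21.6-fold rise (95% interval 2.85 to 6.02 in log2, edgeR adjusted p = 0.0342). With the GC content and length trend removed it was 4.51 (SE 0.71), and it no longer passed (edgeR adjusted p = 0.076). FTH1 lies in the sixth GC decile, where the median over tested genes was -0.08. The call was also lost without WT 2 (4.30, edgeR adjusted p = 0.0979) and with no filter on low counts (4.41, edgeR adjusted p = 0.244). Without WT 3, where FTH1 was highest among the controls, the log2 fold change was 5.08 and passed (edgeR adjusted p = 0.0398).

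FTL, the light chain, did not pass the test. FTL (ENSG00000087086.9) measured 628, 601 and 692 CPM in WT 1, 2 and 3, against 771 CPM in the library labelled ARID1B shRNA. That library lay above each wild-type library, by less than the test could resolve (log2 fold change 0.27, SE 0.16, 95% interval -0.12 to 0.66, edgeR adjusted p = 0.341). With the trend removed the difference was -0.04 (95% interval -0.36 to 0.28). The upper bounds of both intervals lie below the lower bound of the FTH1 interval, 2.85 as counted and 2.43 with the trend removed.

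The share of FTH1 among ferritin reads can be read within each library, where no scaling between libraries enters. FTH1 supplied 3.18%, 5.29% and 9.56% of the FTH1 and FTL reads in WT 1, 2 and 3, against 54.4% in the library labelled ARID1B shRNA (Clopper-Pearson 95% interval 53.6% to 55.2%, counting error only). The share was thus below 10% in each control and above 50% in the other library. It is a share of assigned reads, not of mRNA molecules or protein chains. It is not corrected for transcript length, 1229 bases for FTH1 and 878 for FTL, or for the limits on the FTH1 count given below. TFRC reads per ferritin read (FTH1 and FTL summed) were 1.28, 2.32 and 1.48 in WT 1, 2 and 3, against 0.518 in the library labelled ARID1B shRNA. Per FTL read alone, TFRC stood at 1.33, 2.45 and 1.64 in the controls against 1.14, which is also below each control but by less. These ratios still carry the GC content and length trend. TFRC lies in GC decile 3 (median log2 fold change -0.24 over tested genes) and FTL in GC decile 8 (0.19). With the trend removed, the log2 fold changes were -0.17 for TFRC and -0.04 for FTL. The part of the trend in the ratios was not tested.

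FTH1 has many near-identical processed pseudogenes, so its count depends on how reads that match several copies were treated. Of 25 annotated FTH1P copies 16 had any read, and their sum measured 7.92, 15.9 and 10.3 CPM in WT 1, 2 and 3, against 13.7 CPM in the library labelled ARID1B shRNA. The summed copies lay inside the wild-type range (log2 fold change 0.27, 95% interval -0.78 to 1.32, edgeR adjusted p = 0.721). FTH1P2, with the highest count among the copies, measured 2.33, 4.56 and 3.32 CPM, against 4.79 CPM in the library labelled ARID1B shRNA. FTH1P8 measured 2.33, 4.02 and 2.99 CPM, against 3.76 CPM. FTH1P23 measured 1.24, 3.25 and 1.17 CPM, against 2.97 CPM. FTH1P20 and FTH1P16 stayed below 1 CPM in each library. The copies therefore held 27.7%, 32.1% and 12.3% of the reads given to FTH1 and its copies in wild type, against 1.47% in the library labelled ARID1B shRNA. With the copies added to FTH1 its log2 fold change was 4.12 (edgeR adjusted p = 0.0296).

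The light chain copies did not pass the test. Of 16 FTLP copies 6 had any read, nearly all in FTLP3, which measured 6.68, 7.11 and 7.49 CPM in WT 1, 2 and 3, against 8.56 CPM in the library labelled ARID1B shRNA. The other copies with most reads, FTLP12, FTLP2, FTLP17 and FTLP15, had at most 3 reads in any library. Summed, the FTLP copies had a log2 fold change of 0.28 (edgeR adjusted p = 0.573), beside 0.27 for FTL.

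A second limit on the FTH1 count is its neighbour. In GENCODE v29, exons of BEST1 on the opposite strand cover 880 of the 1229 bases of the longest FTH1 transcript (71.6%). No source used here gives the strand setting of the counting or its rule for reads that overlap 2 genes. If reads were counted without strand, those wholly in the shared bases would be ambiguous. If each read that touches shared bases were ambiguous too, the longest FTH1 transcript would be counted from its first 349 bases. These hold the 5′ UTR and the start of the coding sequence. Over all annotated FTH1 transcripts, BEST1 exons cover 1267 of 2030 exonic bases (62.4%), so bases of other FTH1 transcripts could be counted as well. Under a looser rule, reads that cross into the shared bases could still be given to FTH1. Ambiguous reads made up 5.55%, 5.34% and 5.64% of all reads in WT 1, 2 and 3, against 6.16% in the library labelled ARID1B shRNA. The annotation release the authors counted with may place BEST1 exons differently, which was not examined. The part of multiple mapping and of this overlap in the FTH1 difference was not tested.

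**Figure D2:**
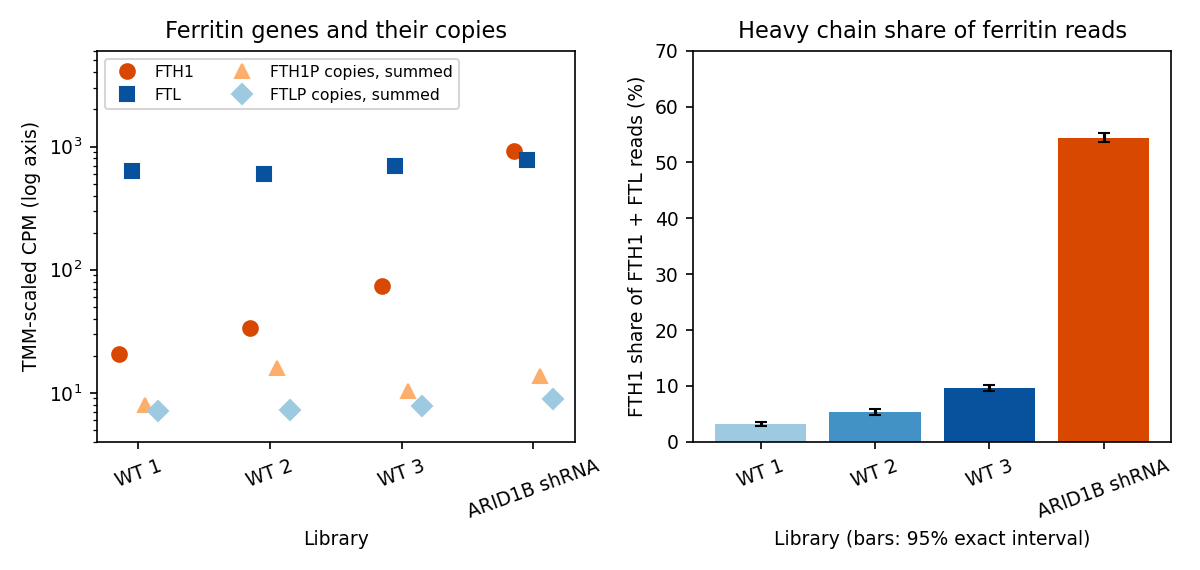
Left, TMM-scaled CPM (log axis) of FTH1, FTL and the summed pseudogene copies in each library. Right, FTH1 as a percentage of FTH1 and FTL reads with exact 95% intervals: it is 3.18% to 9.56% in WT 1, 2 and 3, against 54.4% in the library labelled ARID1B shRNA, while the summed FTH1P copies stay between 7.92 and 15.9 CPM.

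No import gene passed the test. TFRC (ENSG00000072274.8), the transferrin receptor, measured 833, 1474 and 1132 CPM in WT 1, 2 and 3, against 875.5 CPM in the library labelled ARID1B shRNA. That value lay inside the wild-type range, close to WT 1 (log2 fold change -0.39, SE 0.33, 95% interval -1.21 to 0.43, edgeR adjusted p = 0.494). With the trend removed it was -0.17. TFRC is the member whose 4 hairpins printed above lie in the 3′ UTR, where they act on mRNA stability.

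STEAP3 (ENSG00000115107.15), the endosomal ferrireductase, measured 23.8, 28.9 and 34.8 CPM in WT 1, 2 and 3, against 39.5 CPM in the library labelled ARID1B shRNA. It lay above each control without passing (log2 fold change 0.44, 95% interval -0.22 to 1.09, edgeR adjusted p = 0.351), and the difference was -0.03 with the trend removed. The antisense gene STEAP3-AS1 overlaps 500 of the 4262 bases of its longest transcript, so STEAP3 counts are uncertain there. SLC11A2 (ENSG00000110911.10), the divalent metal transporter DMT1 that moves iron out of endosomes, measured 96.7, 176 and 148 CPM in WT 1, 2 and 3, against 98.3 CPM in the library labelled ARID1B shRNA. Like TFRC it stood near WT 1 and below WT 2 and WT 3 (log2 fold change -0.51, 95% interval -1.40 to 0.37, edgeR adjusted p = 0.407).

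SLC39A14 (ENSG00000104635.9), the zinc transporter ZIP14 that also carries iron not bound to transferrin, varied most among the controls. It measured 140, 792 and 476 CPM in WT 1, 2 and 3, against 386 CPM in the library labelled ARID1B shRNA. The 5.64-fold spread within wild type gave a wide interval (log2 fold change -0.28, SE 0.91, 95% interval -2.66 to 2.10, edgeR adjusted p = 0.875). The difference was -0.23 with the trend removed, and the sign turned without WT 2, to 0.33.

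SLC40A1 (ENSG00000138449.6) encodes ferroportin, the iron exporter, and was the member with the lowest level. It measured 7.76, 5.64 and 8.14 CPM in wild type, from 100, 73 and 125 counts, against 3.88 CPM in the library labelled ARID1B shRNA, from 34 counts (exact Poisson 95% interval 2.69 to 5.42 CPM). It was the 1 member below each wild-type library. The difference did not pass (log2 fold change -0.89, SE 0.39, 95% interval -1.84 to 0.07, edgeR adjusted p = 0.223), and it was -0.69 with the trend removed.

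The genes of the iron regulatory proteins lay inside the wild-type range. ACO1 (ENSG00000122729.14), whose product is an aconitase when it holds an iron-sulfur cluster and an RNA-binding protein when it does not, measured 113, 245 and 133 CPM in WT 1, 2 and 3, against 157 CPM in the library labelled ARID1B shRNA. Its log2 fold change was -0.06 (95% interval -1.25 to 1.13, edgeR adjusted p = 0.945), and it was 0.36 without WT 2. IREB2 (ENSG00000136381.8), whose product is degraded when iron is plentiful, measured 99.4, 109 and 78.0 CPM in WT 1, 2 and 3, against 81.8 CPM in the library labelled ARID1B shRNA. Its log2 fold change was -0.22 (95% interval -0.80 to 0.35, edgeR adjusted p = 0.584), and 0.04 with the trend removed. The test does not show that these mRNAs were equal in both groups, and the ACO1 interval spans changes of more than 1 log2 unit each way.

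**Figure D3:**
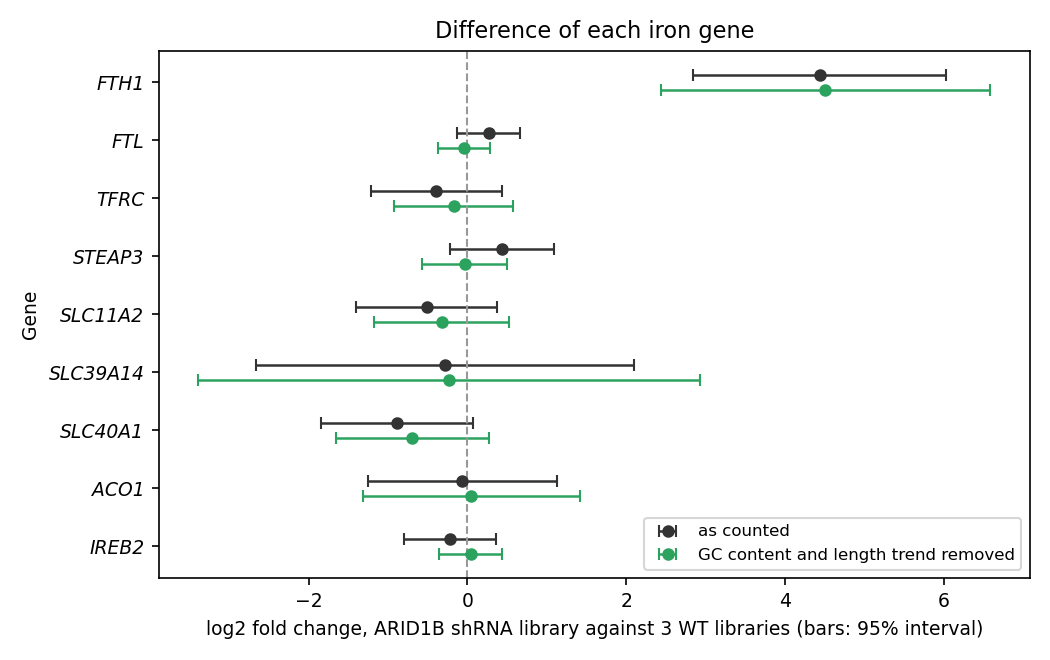
Log2 fold change of each member, library labelled ARID1B shRNA against 3 wild-type libraries, with 95% intervals from edgeR, as counted and after removal of the GC content and length trend. The FTH1 intervals start at 2.85 and 2.43, and those of the other 8 members include 0.

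Each of the smaller differences had the sign of the median of its GC decile. FTL and STEAP3, in the eighth GC decile (median log2 fold change 0.19 over tested genes), were positive. TFRC, SLC40A1 and SLC11A2, in the third (-0.24), IREB2, in the first (-0.30), and ACO1 and SLC39A14, in the fifth (-0.19), were negative. With the trend removed, FTL, STEAP3, IREB2 and ACO1 changed sign and came within 0.05 of 0. TFRC, SLC39A14, SLC11A2 and SLC40A1 stayed negative at -0.17, -0.23, -0.32 and -0.69. The trend joins GC content and length, and the part of either in these differences was not tested.

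The iron genes also differed between the wild-type libraries. WT 1 was lowest for 6 of the 9 members and highest for none. The share of all tested genes lowest or highest in WT 1 was not examined, so this count describes the members alone. TFRC, SLC11A2, SLC39A14 and ACO1 were each lowest in WT 1 and highest in WT 2, by 1.77-fold, 1.82-fold, 5.64-fold and 2.18-fold. The median ratio of highest to lowest wild-type library was 1.77 over the members, beside 1.29 over tested genes whose mean count reached 50. SLC39A14 stood at percentile 99.2 of those genes, FTH1 at 97.9, ACO1 at 92.4 and FTL at 22.4. These values are a description of 3 libraries, and a difference between vector-only and parental cells cannot be told apart from other differences between them.

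Levels of different genes were compared per kilobase of the longest transcript. In wild type FTL had the highest level of the members, at 729 ± 53.1 CPM per kilobase (SD, n = 3), followed by TFRC at 224 ± 62.7 and SLC39A14 at 101 ± 70.2. FTH1 stood at 34.5 ± 22.3, SLC11A2 at 32.3 ± 9.24, ACO1 at 21.9 ± 9.57 and IREB2 at 15.01 ± 2.47 CPM per kilobase. STEAP3 at 6.84 ± 1.28 and SLC40A1 at 2.09 ± 0.391 were lowest. From TFRC down to IREB2, the wild-type ranges of each pair of neighbours in this order overlapped. FTL lay above TFRC, IREB2 above STEAP3 and STEAP3 above SLC40A1 with no overlap. In the library labelled ARID1B shRNA FTH1 reached 748.5 CPM per kilobase, next to FTL at 879. If only the first 349 bases of its longest transcript could be counted, FTH1 would stand at 122 ± 78.4 CPM per kilobase of those bases in wild type. In the library labelled ARID1B shRNA it would stand at 2636, so the place of FTH1 in the order depends on the length used.

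The wider iron network was read from 96 other genes in lists by role, of which 83 were tested. Of these 3 rose (HMOX1, PCBP1, EPAS1), 1 fell (CUBN) and 79 did not pass. The 4 calls make 4.82% of the tested iron genes, near the 4.48% over all tested genes. The median log2 fold change of the 83 genes was 0.02, beside -0.05 over all tested genes, and 42 were positive and 41 negative. With the trend removed 3 rose and 1 fell as well, where 3.17% of all tested genes were called.

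HMOX1, haem oxygenase, frees iron from haem. It measured 18.1, 11.4 and 17.6 CPM in WT 1, 2 and 3, against 125 CPM in the library labelled ARID1B shRNA, far above each control (log2 fold change 2.996, SE 0.28, edgeR adjusted p = 0.0183; 2.48 with the trend removed). PCBP1, a chaperone that hands iron to ferritin, measured 64.7, 62.3 and 69.7 CPM, against 166 CPM (log2 fold change 1.34, SE 0.16, edgeR adjusted p = 0.0223; 1.08 with the trend removed). EPAS1, the hypoxia-inducible factor HIF-2 alpha, whose mRNA is known to carry a 5′ iron-responsive element (its letters had 3 of the 5 upper pairs and missed the rule used above), measured 36.5, 31.9 and 45.4 CPM, against 122 CPM (log2 fold change 1.69, SE 0.23, edgeR adjusted p = 0.0274; 1.52 with the trend removed). CUBN, cubilin, a receptor for transferrin and other ligands in kidney and gut, fell from 40.8, 44.6 and 37.7 CPM to 6.05 CPM (log2 fold change -2.76, SE 0.27, edgeR adjusted p = 0.0183; -3.08 with the trend removed). Without WT 2 the edgeR adjusted p was 0.0524 for PCBP1 and 0.0533 for EPAS1, while HMOX1 and CUBN passed at 0.049 each.

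In 5 lists with tested genes edgeR called none. Over all 17024 tested genes 25.4% had an unadjusted p below 0.05, 10.5% were called by DESeq2 and 4.81% by limma-voom, and the counts for each list are to be read against those shares. Of 20 tested genes of mitochondrial iron and iron-sulfur cluster assembly 0 were called (3 at an unadjusted p below 0.05, 1 by DESeq2, 0 by limma-voom), with a median log2 fold change of -0.10. The scaffold gene ISCU had the smallest p, at 70.8, 78.9 and 73.2 CPM in wild type, against 44.7 CPM (log2 fold change -0.73, edgeR adjusted p = 0.0844; -0.64 with the trend removed). Of 8 genes of cytosolic iron-sulfur assembly 0 were called (4 at an unadjusted p below 0.05, 2 by DESeq2, 1 by limma-voom), and NUBP2 had the smallest p, at 4.19, 3.17 and 8.92 CPM, against 34.5 CPM (log2 fold change 2.655, edgeR adjusted p = 0.0595; 1.86 with the trend removed). Of 9 haem synthesis genes 0 were called (1 at an unadjusted p below 0.05, 0 by DESeq2 and by limma-voom), and CPOX measured 48.5, 51.5 and 41.9 CPM, against 67.6 CPM (log2 fold change 0.52, edgeR adjusted p = 0.181; 0.62 with the trend removed).

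Of 9 tested genes of the transferrin cycle and ferrireduction 0 were called by edgeR (1 at an unadjusted p below 0.05, 1 by DESeq2, 0 by limma-voom). CYBRD1, a plasma membrane ferrireductase, measured 81.3, 73.2 and 76.0 CPM in WT 1, 2 and 3, against 40.5 CPM in the library labelled ARID1B shRNA (log2 fold change -0.92, edgeR adjusted p = 0.0551; -0.72 with the trend removed). Of 4 tested genes of export and its regulators 0 were called by edgeR (1 at an unadjusted p below 0.05, 0 by DESeq2 and by limma-voom). HEPH, the ferroxidase hephaestin, had 1.09, 1.47 and 0.586 CPM in wild type and 0 counts in the library labelled ARID1B shRNA. With 3 counts put in place of 0 there (0.342 CPM), HEPH would stand 3.06-fold below the wild-type mean of 1.05 CPM. That floor is a chosen value and not a bound on the difference. The exact Poisson 95% interval for 0 counts in that library reaches 0.421 CPM. The edgeR adjusted p of HEPH was 0.103. The mitochondrial ferritin gene FTMT and the hepcidin gene HAMP were at 0 counts in each library.

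**Figure D4:**
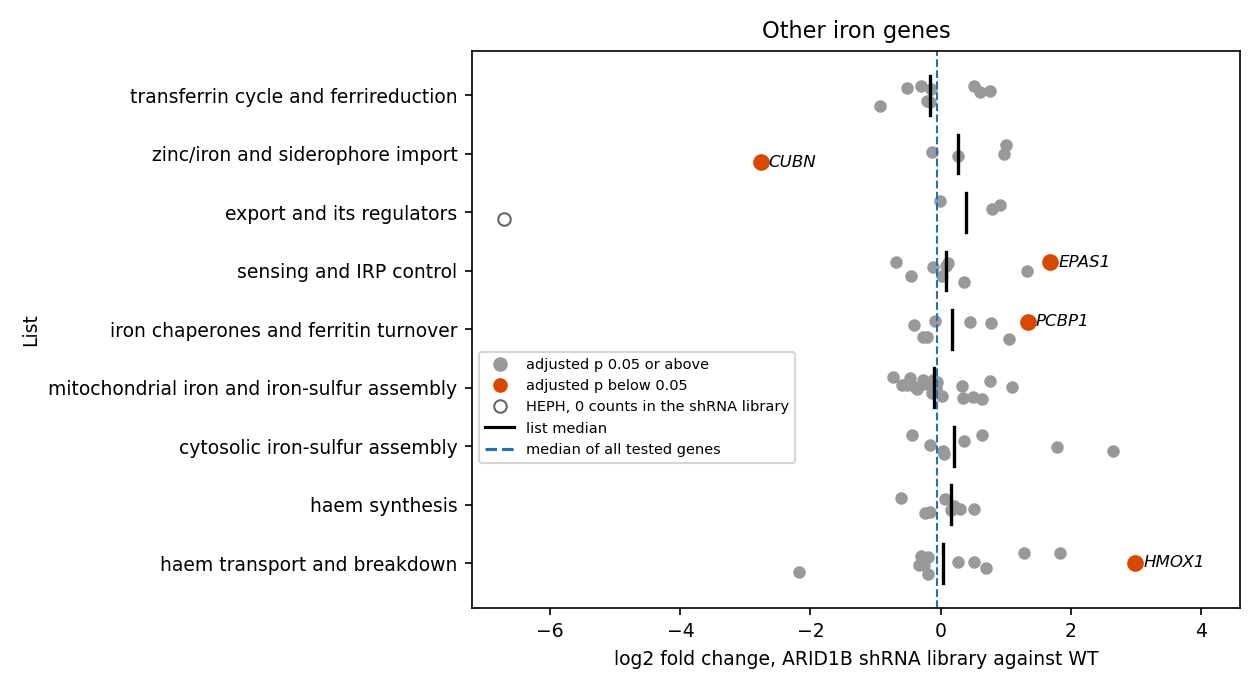
Log2 fold change of the tested other iron genes by list, library labelled ARID1B shRNA against wild type, with 1 point per gene, the list median as a bar and the median of all tested genes as a dashed line. HMOX1, PCBP1 and EPAS1 (higher) and CUBN (lower) passed an edgeR adjusted p of 0.05; the HEPH value rests on 0 counts and depends on the prior count.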

How the data were processed

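Poly(A)-selected RNA of 4 Daoy libraries was read in single runs of 100 nucleotides, per the labels' protocols. The deposited values are raw counts per gene. The submitters' processing notes name GRCh37 (hg19), HISAT2, HTSeq, bcl2fastq and DESeq2. The sources used here give no version, strand setting, overlap rule or annotation release. Lines that name no gene entered neither library sizes nor tests: in WT 1 to 3 and the library labelled ARID1B shRNA, reads outside genes made up 6.70%, 6.89%, 6.39% and 4.81% of all reads, ambiguous reads 5.55%, 5.34%, 5.64% and 6.16%, and reads not aligned uniquely 3.95%, 3.75%, 3.72% and 3.53%. Symbols matched 90.5% of 57820 identifiers (GENCODE v29 and current symbols). Counts were fitted with edgeR 4.0.16 in R 4.3.3: filterByExpr (minimum count 10, total 15), TMM, glmQLFit with robust shrinkage and glmQLFTest, with Benjamini-Hochberg adjustment over 17024 genes and a threshold of 0.05. Its 2 residual degrees of freedom come from wild type. The SE is the absolute log2 fold change divided by the square root of F, and intervals use the moderated t distribution. The trend on GC content and length was a loess fit (span 0.3, mean count of at least 20) removed through offsets. Alternatives were RLE scaling, DESeq2 1.42.0, limma-voom (limma 3.58.1), no count filter, genes with a mean count of 50 or more, no robust shrinkage, and leaving out each wild-type library. The procedure was tested on simulated counts, whose setting and outcome are not given here, and no result above rests on them. The members, lists and hairpin rule were chosen with earlier results of these data known. Genes named are the 10 members, ARID1B, up to 5 pseudogene copies per ferritin gene, each other iron gene that passed, and the gene with the smallest p in lists without one; FTMT, HAMP, BEST1, STEAP3-AS1 and single cell type markers were named outside that rule, after their values were seen.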

Additional observations from a re-analysis of the deposited data

How the results depend on the processing

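The FTH1 difference kept its sign in each alternative run, from 4.11 to 5.08 on the log2 scale with FTH1 counted alone or with its copies, and the count of members called was 0 in place of 1 with no filter on low counts (edgeR; 4 members at an unadjusted p below 0.05), with the GC and length trend removed (edgeR; 1 member) and without WT 2 (edgeR; 2 members); over the wild-type libraries left out in turn it ranged from 0 to 1. DESeq2 and limma-voom each called FTH1 (adjusted p = 7.48e-04 and 0.0202). The sign turned with the trend removed for FTL (-0.042), ACO1 (0.047), IREB2 (0.043), STEAP3 (-0.032) and ARID1B (-0.16), with limma-voom for ACO1 (0.024) and SLC39A14 (0.037), and without WT 2 for ACO1 (0.36; range with 1 wild-type library left out -0.27 to 0.36) and SLC39A14 (0.33; range -0.72 to 0.33); none of these was called either way. Leaving out wild-type libraries, ARID1B reached 1.12 (edgeR adjusted p = 0.026) without WT 1. Other iron genes called numbered 4, against 10 with DESeq2, 17 with no filter and 2 to 6 with 1 wild-type library left out. Over all genes 763 were called, against 1781 with DESeq2, 3226 with no filter and 157 to 1189 with 1 wild-type library left out. The causes of these shifts were not tested. No paired analysis was possible because the single library labelled ARID1B shRNA carries no replicate number in the labels. With 34 counts of SLC40A1 and 0 of HEPH in that library, depth limits both values.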
